A study of Mus musculus with 2 samples.

Results

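The genes of the cytosolic ribosomal proteins were followed in round spermatids, together with the copies of these genes that mouse testis uses. Members were taken by gene symbol (Rpl or Rps followed by a number and at most 1 of the letters a, x, y or l, Rplp followed by a digit, and Rpsa), which gave 81 of the 23234 genes measured. Of these, 43 encode proteins of the large subunit, 31 proteins of the small subunit and 3 the acidic stalk proteins. The other 4 (Rpl10l, Rpl39l, Rpl3l and Rps27l) are paralogs of core genes. Total RNA of round spermatids from C57BL/6 mice had been sequenced after a strand-marking library preparation; round spermatids are haploid cells, formed by the divisions of meiosis, that go on to become sperm. There was 1 library labelled Epc-dKO, from mice described in the labels as deficient in Epc1 and Epc2, whose products belong to the NuA4/TIP60 complex that acetylates histones, and 1 library of wild-type mice. The labels give neither the alleles, the driver of any deletion, the age nor the number of animals pooled. Values are FPKM (fragments per kilobase of transcript, scaled to the number of mapped fragments), so levels of different genes can be compared per length.

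The ribosome reads mRNA in its small subunit and joins amino acids in its large subunit, and each core protein is present once per ribosome, apart from the stalk proteins Rplp1 and Rplp2. Several core genes lie on the X chromosome, which is silenced during male meiosis and remains largely repressed in round spermatids. Autosomal copies of some of them, made by reverse transcription of their mRNA, are active in testis. In mice, Rpl10l replaces Rpl10 during meiosis, and Rpl39l encodes a form of the exit tunnel protein used by spermatids.

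Each genotype has 1 library, so the spread between animals is unknown and no test was run. Log2 ratios compare the library labelled Epc-dKO with the wild type after 1 was added to every FPKM, which understates the change of low genes. The words rose and fell are kept for ratios of at least 2-fold on this scale, and a gene counts as expressed at a mean FPKM of 1 or more. Epc1 stood at 13.6 FPKM in the library labelled Epc-dKO, against 11.4 FPKM in wild type, and Epc2 at 10.5 FPKM against 7.12 FPKM. Neither targeted gene was lower under the Epc-dKO label, so whole-gene FPKM does not bear that label out. All 15 round spermatid markers examined were expressed. Part of the low FPKM values lay on steps of whole fragments, from which the depth was estimated at 40.9 M (megafragments) for the library labelled Epc-dKO and 37.1 M for the wild-type library.

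The 4 X-linked core genes, Rpl10, Rpl36a, Rpl39 and Rps4x, were all low beside the wild-type median of 14.0 FPKM over all members. Each had an autosomal copy at a higher level in both libraries. Low levels were not limited to X-linked genes, as the autosomal Rpl34, Rps15a and Rpl22 had 0.214, 0.844 and 0.911 FPKM in the wild-type library. Rpl10 encodes a protein near the peptidyl transferase centre that is among the last to join the large subunit. Rpl10 fell, with an FPKM of 1.65 in the library labelled Epc-dKO and 4.38 in the wild-type library (log2 ratio -1.02), as did 1.88% of all expressed genes. With the libraries rescaled to a median ratio of 1 its log2 ratio was -0.93, inside 2-fold, and with the same upper quartile it was just inside, at -0.996. Rpl10l on chromosome 12 had 21.2 and 26.9 FPKM in the same order (log2 ratio -0.33). The copy thus held 92.8% of the summed FPKM of the pair in the library labelled Epc-dKO and 86.0% in the wild-type library. Its FPKM corresponded to 712 and 816 fragments, and that of Rpl10 to an estimated 40.3 and 96.7 fragments. The fold of FPKM was 0.377 for Rpl10 (0.252 to 0.545, exact 95% interval for counting error only) and 0.790 for Rpl10l (0.713 to 0.875). The intervals do not cover variation between animals. The difference between the log2 ratios, Rpl10l minus Rpl10, was 0.69.

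Rpl39, for a small protein lining the exit tunnel, was near the bottom of the list, with an FPKM of 0.578 in the library labelled Epc-dKO and 0.284 in the wild-type library. These values rest on an estimated 9.65 and 4.29 fragments, and their fold of 2.04 has a counting interval of 0.653 to 9.89, so no direction can be read at this depth. Rpl39l on chromosome 16 had 5.38 and 7.94 FPKM (log2 ratio -0.49), from an estimated 133 and 177 fragments. It supplied 90.3% of the pair's summed FPKM in the library labelled Epc-dKO and 96.6% in the wild-type library. The difference between the log2 ratios, Rpl39l minus Rpl39, was -0.78, opposite in sign to that of the Rpl10 pair, and it depends on the few fragments of Rpl39.

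The other X-linked genes were also below their copies. Rps4x, for a small subunit protein, had an FPKM of 0.363 in the library labelled Epc-dKO and 1.04 in the wild-type library, under the minimum for an expressed gene. Its copy Rps4y2 on chromosome 6, which the symbol rule leaves out and which RefSeq lists as Rps4l, a transcribed pseudogene, had 13.1 and 17.1 FPKM (log2 ratio -0.36). Rpl36a, for a protein of the tRNA exit site, had 1.33 and 2.03 FPKM, and Rpl36al on chromosome 12, also outside the rule, had 6.63 and 9.56 FPKM (log2 ratio -0.47). The copy exceeded the X-linked gene 4.99 times in the library labelled Epc-dKO and 4.70 times in the wild-type library for the Rpl36a pair, and 35.9 and 16.4 times for the Rps4x pair. The X-linked levels in these ratios rest on few fragments, an estimated 15.2 and 21.0 for Rpl36a and 11.5 and 29.8 for Rps4x. All 4 autosomal copies had log2 ratios between -0.33 and -0.49, close to the median of the ribosomal protein genes given below.

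**Figure D1:**
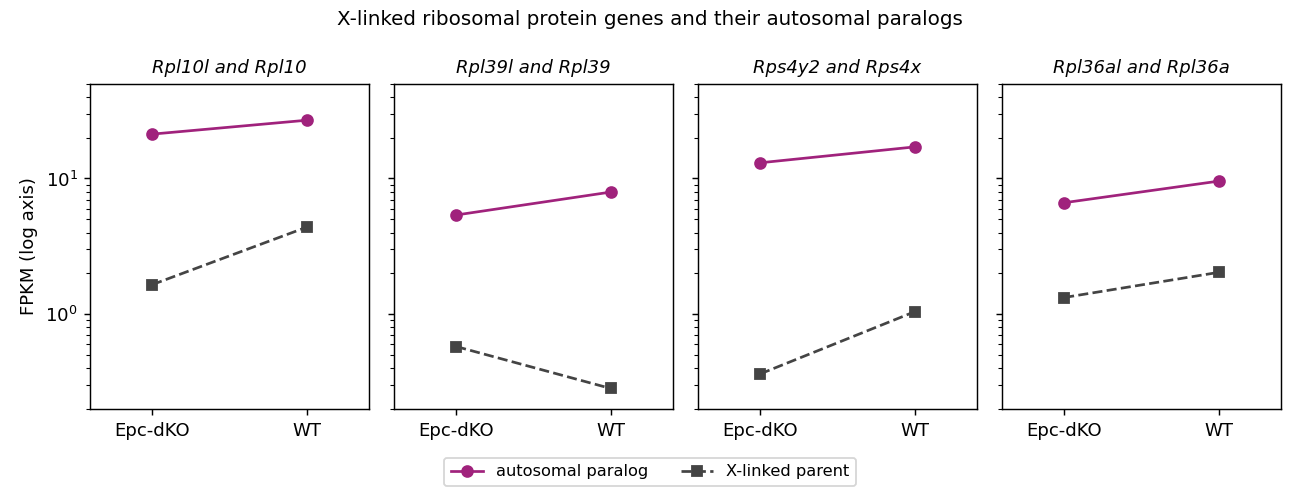
FPKM on a log axis of 4 X-linked ribosomal protein genes (grey squares) and their autosomal paralogs (purple circles) in the library labelled Epc-dKO and the wild-type (WT) library, 1 library each, with no error bars. Each paralog lies above its X-linked gene in both libraries, by between 4.70 times (Rpl36al over Rpl36a, wild type) and 35.9 times (Rps4y2 over Rps4x, Epc-dKO). The levels of Rpl39, Rpl36a and Rps4x rest on few fragments.

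The pairs differ enough in sequence for many reads to be told apart, which is why their coding sequences are shown, as read from GENCODE M21 transcripts (GRCm38). The coding sequences of Rpl39l and Rpl39 have 156 bases each and differ at 23 of them, and capitals mark the differing bases. Those of Rpl10l and Rpl10 have 645 bases each and differ at 98, of which the first 180 bases are shown, with 30 differences.
Rpl39l: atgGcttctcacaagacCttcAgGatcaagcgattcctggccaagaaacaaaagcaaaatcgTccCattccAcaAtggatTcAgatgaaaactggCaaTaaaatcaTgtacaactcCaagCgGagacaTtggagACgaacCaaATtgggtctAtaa
Rpl39: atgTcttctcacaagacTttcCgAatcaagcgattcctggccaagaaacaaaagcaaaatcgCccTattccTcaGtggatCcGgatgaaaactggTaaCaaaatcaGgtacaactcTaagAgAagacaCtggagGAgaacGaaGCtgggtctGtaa
Rpl10l: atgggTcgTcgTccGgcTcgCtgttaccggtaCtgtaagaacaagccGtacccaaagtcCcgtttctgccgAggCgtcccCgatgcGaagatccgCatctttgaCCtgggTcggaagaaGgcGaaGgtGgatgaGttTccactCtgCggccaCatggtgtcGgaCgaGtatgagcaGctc
Rpl10: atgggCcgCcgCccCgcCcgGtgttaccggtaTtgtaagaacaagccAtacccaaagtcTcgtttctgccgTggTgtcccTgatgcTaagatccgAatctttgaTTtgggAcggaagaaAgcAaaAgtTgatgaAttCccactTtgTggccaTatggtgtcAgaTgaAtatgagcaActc
The longest stretch shared by the whole transcripts was 38 bases for the Rpl39 pair, 23 for the Rpl10 pair, 38 for Rps4y2 and Rps4x and 24 for the Rpl36a pair. Coding identity was 85.3% for Rpl39l and Rpl39, 84.8% for Rpl10l and Rpl10 and 87.9% for Rpl36al and Rpl36a. Within a pair, stretches identical over the length of a read are therefore short, but the X-linked genes also resemble other genes. Of the 50-base words of the Rpl10 transcript, 92.1% also occurred in 15 other annotated genes, against 7.60% in 1 other gene for Rpl10l. For Rpl39 the share was 16.2%, and Rpl39l shared no 50-base word with another gene. The share was 85.5% for Rpl36a and 72.2% for Rps4x. How the authors' counting divided shared reads is not given in the sources used here, so the levels of Rpl10, Rpl36a and Rps4x are uncertain. The part of read sharing in the fall of Rpl10 was not tested.

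Across the family, 75 of the 81 genes were expressed, and 66 of these (88.0%) had a log2 ratio below 0, against 54.4% of all 10438 expressed genes. The median log2 ratio of the 75 was -0.41, with quartiles of -0.65 and -0.27, beside a median of -0.05 and quartiles of -0.34 and 0.24 over all expressed genes. None rose and 2 fell, Rps19 and Rpl10, while 1.88% of all expressed genes were at least 2-fold lower and 2.75% at least 2-fold higher. The common difference was thus small for most members and rarely reached 2-fold. The FPKM of all 81 summed to 1328 in the library labelled Epc-dKO and 1748 in the wild-type library, a ratio of 0.760. These sums were 0.671% and 0.903% of all FPKM. In bulk RNA, fewer cells that express these genes and less of their RNA per cell cannot be told apart.

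The lower ratios were not limited to genes of low level. Among the 38 members with the higher mean FPKM the median log2 ratio was -0.40 (SD over genes 0.30), and among the 37 with the lower mean FPKM it was -0.51 (SD 0.38). Across the 75 genes, which share 2 libraries and are not replicates, the log2 ratio had a Pearson's r of 0.12 and a Spearman's rho of 0.11 with log2 mean FPKM, and 0.09 and 0.07 with transcript length. All 2570 expressed genes within the members' interquartile range of mean FPKM (6.65 to 22.2) had a median log2 ratio of 0.01. The 838 expressed genes within the members' interquartile range of transcript length (587 to 1054 nt) had a median of -0.10.

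**Figure D2:**
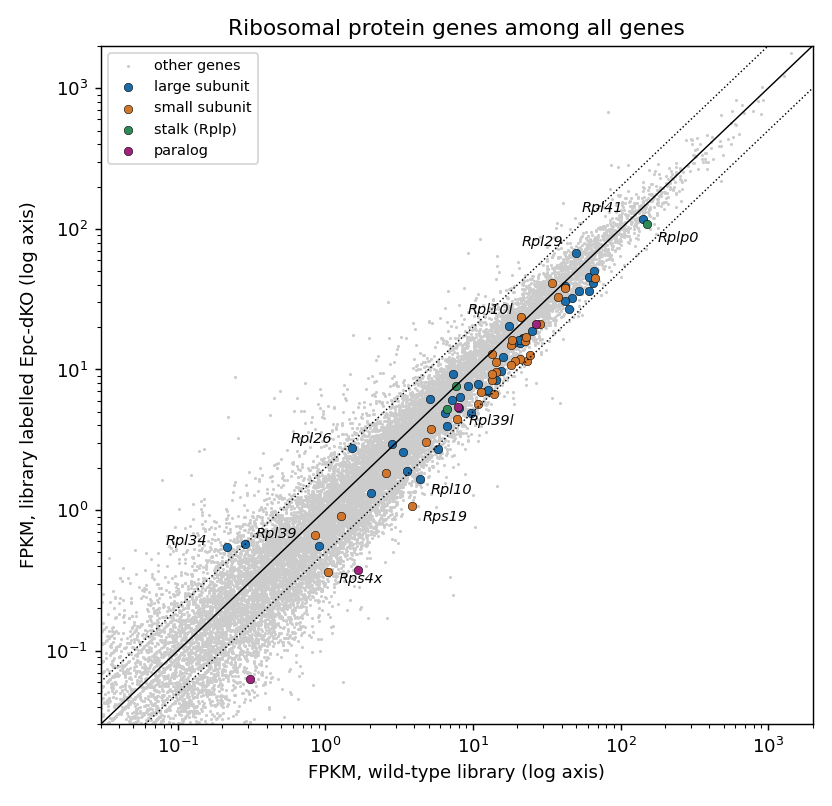
FPKM of each gene in the library labelled Epc-dKO (y axis) against the wild-type library (x axis), both on log axes, 1 library each; the solid line marks equal values and the dotted lines 2-fold of FPKM itself, with nothing added. Ribosomal protein genes, coloured by subunit, lie mostly below the line of equality, with Rplp0 at 109 against 150 FPKM, and Rpl29 above it at 67.0 against 50.1 FPKM.

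Listed levels differed widely between genes of the family. Those of genes with many 50-base words in other annotated genes, such as Rps27 (98.6%) and Rpl9 (93.3%), are uncertain, because the handling of shared reads is not given. In the library labelled Epc-dKO the members' FPKM ran between 0.0627 and 118, with a median of 9.33. In the wild-type library it ran between 0.214 and 150, with a median of 14.0. The order of the genes was alike in both, with a Pearson's r of 0.961 for log2 FPKM and a Spearman's rho of 0.967 over the 75 expressed genes. Rpl41, which encodes a very short basic peptide, and Rplp0 were the highest, at 118 and 109 FPKM in the library labelled Epc-dKO and 143 and 150 FPKM in the wild-type library. The 6 genes under the minimum were Rpl22, Rpl34, Rpl39, Rpl3l, Rps15a and Rps4x.

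In the large subunit, 34 of 40 expressed genes had a log2 ratio below 0 and the median was -0.40. Among the 5 most abundant, Rpl41 had a log2 ratio of -0.27. Rpl11, which with Rpl5 carries the 5S RNA into the subunit and can bind the p53 regulator Mdm2, had 50.03 FPKM in the library labelled Epc-dKO and 66.1 FPKM in the wild-type library (-0.40), and Rpl5 had 7.16 and 12.6 FPKM (-0.74). Rpl28 had 45.6 and 61.0 FPKM (-0.41). Rpl29 stood on the other side, with 67.0 FPKM in the library labelled Epc-dKO and 50.1 FPKM in the wild-type library (0.41). Rpl29 was the third highest member in the library labelled Epc-dKO and the ninth in the wild-type library. Of its 50-base words 66.2% occur in other annotated genes, beside 62.2% for Rpl11.

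Proteins around the peptidyl transferase centre and the exit tunnel did not share 1 ratio. Rpl3 and Rpl8, which reach towards the catalytic centre, had 9.82 and 36.2 FPKM in the library labelled Epc-dKO and 15.4 and 60.9 FPKM in the wild-type library, log2 ratios of -0.60 and -0.73. Rpl4, whose loop narrows the tunnel, had 41.5 and 64.8 FPKM (-0.63), but Rpl17, whose loop faces it, had 20.3 and 17.6 FPKM (0.20). The share of 50-base words found in other annotated genes was 78.7% for Rpl17 and 85.6% for Rpl3, against 16.5% for Rpl4 and 7.86% for Rpl8. At the tunnel exit, Rpl35 (log2 ratio -0.54), Rpl23a (-0.36), Rpl19 (-0.26) and Rpl31 (-0.22) lay below 0. Rpl26, another protein of the exit, had 2.76 FPKM in the library labelled Epc-dKO and 1.51 FPKM in the wild-type library, the highest log2 ratio of all expressed members at 0.58. Rpl26 rests on an estimated 36.4 and 18.03 fragments, and its fold of 1.83 has a counting interval of 1.002 to 3.39. Of its 50-base words 71.3% occur in other annotated genes. The part of read sharing in the differences between these genes was not tested.

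The remaining large subunit genes with high or low ratios were of mixed roles. Rpl24, a bridge to the small subunit whose mutation gives the belly spot and tail mouse, had 4.94 FPKM in the library labelled Epc-dKO and 9.71 FPKM in the wild-type library (-0.85). Rpl38, required in mice for translation of a set of Hox mRNAs, had 7.03 and 12.5 FPKM (-0.74). Rpl15 had 9.33 and 7.38 FPKM (0.30) and Rpl21 had 6.14 and 5.10 FPKM (0.23), so both stood higher in the library labelled Epc-dKO without reaching 2-fold. Rpl30 had 2.93 and 2.84 FPKM, nearly equal.

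In the small subunit, 27 of 29 expressed genes had a log2 ratio below 0 and the median was -0.50. Rps19, the gene most often mutated in human Diamond-Blackfan anaemia, had an FPKM of 1.06 in the library labelled Epc-dKO and 3.87 in the wild-type library and fell by 1.24 on the log2 scale. Its fold of FPKM was 0.275 (0.157 to 0.470, counting error only), from an estimated 18.7 and 61.6 fragments. Of its 50-base words 53.6% occur in other annotated genes. The processed pseudogene Rps19-ps3, which shares a stretch of 125 bases with it, had 0.715 and 0.729 FPKM.

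Several small subunit genes stood just inside 2-fold on the scale with 1 added. Rpsa, for the platform protein also known as the laminin receptor, had 6.72 FPKM in the library labelled Epc-dKO and 14.0 FPKM in the wild-type library (log2 ratio -0.96). Its fold of FPKM itself was 0.481, and it passed 2-fold at pseudocounts of 0.1 (-1.05) and 0.5 (-1.004) and on the TPM scale (-1.07). Rps14, for a platform protein at the mRNA exit, had 11.6 and 23.2 FPKM (-0.95), from an estimated 186 and 338 fragments. Its fold of FPKM itself was 0.498, and it passed 2-fold on the TPM scale (-1.03). Rps28, also near the mRNA exit, had 12.7 and 24.2 FPKM (-0.88), and Rps13 had 5.68 and 10.8 FPKM (-0.83). By contrast, Rps26, which contacts mRNA at the exit, had 12.9 and 13.4 FPKM (-0.05), so neighbours in the subunit differed.

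Among the 5 most abundant small subunit genes, Rps7 alone had a log2 ratio above 0. Rps2, at the mRNA entry and the highest of the subunit, had 45.0 FPKM in the library labelled Epc-dKO and 67.1 FPKM in the wild-type library (-0.57). Rps6, the substrate of the S6 kinases, had 38.2 and 42.3 FPKM (-0.14), and Rps9, at the mRNA entry, had 32.5 and 37.7 FPKM (-0.21). Rps24 had 21.2 and 28.4 FPKM (-0.41). Rps7 had 41.5 and 34.1 FPKM (0.28). Outside these 5, Rps18, at the head of the subunit, had 23.7 and 21.3 FPKM (0.15), also above 0. The share of 50-base words found in other annotated genes was 59.9% for Rps7 and 86.7% for Rps18, beside 84.6% for Rps6 and 79.0% for Rps2.

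The stalk recruits translation factors to the large subunit. Rplp0, its base, had 109 FPKM in the library labelled Epc-dKO and 150 FPKM in the wild-type library (-0.46). Its partners Rplp1 and Rplp2, which bind it as dimers, had 7.68 and 7.66 FPKM (0.00) and 5.20 and 6.66 FPKM (-0.30). Both partners were far below Rplp0 in each library. The share of 50-base words found in other annotated genes was 60.0% for Rplp1, 30.7% for Rplp2 and 41.8% for Rplp0, so these levels carry the uncertainty of shared reads.

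Paralogs of autosomal genes were low. Rps27l, a p53-induced relative of Rps27, had 0.376 FPKM in the library labelled Epc-dKO and 1.66 FPKM in the wild-type library (log2 ratio -0.95), from an estimated 5.71 and 22.8 fragments. Rps27 itself had 0.905 and 1.27 FPKM, and 98.6% of its 50-base words occur in other genes. Rpl3l, a form of Rpl3 known from heart and skeletal muscle, had 0.0627 and 0.310 FPKM, at 0.635% and 1.97% of the summed FPKM of Rpl3l and Rpl3. Outside the rule, Rpl22l1 had 0.313 and 0.395 FPKM beside 0.559 and 0.911 FPKM for Rpl22, and Rpl7l1 had 2.84 and 3.17 FPKM beside 15.5 and 20.8 FPKM for Rpl7. In these pairs the copy was the lower gene, except that Rps27l exceeded Rps27 in the wild-type library.

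**Figure D3:**
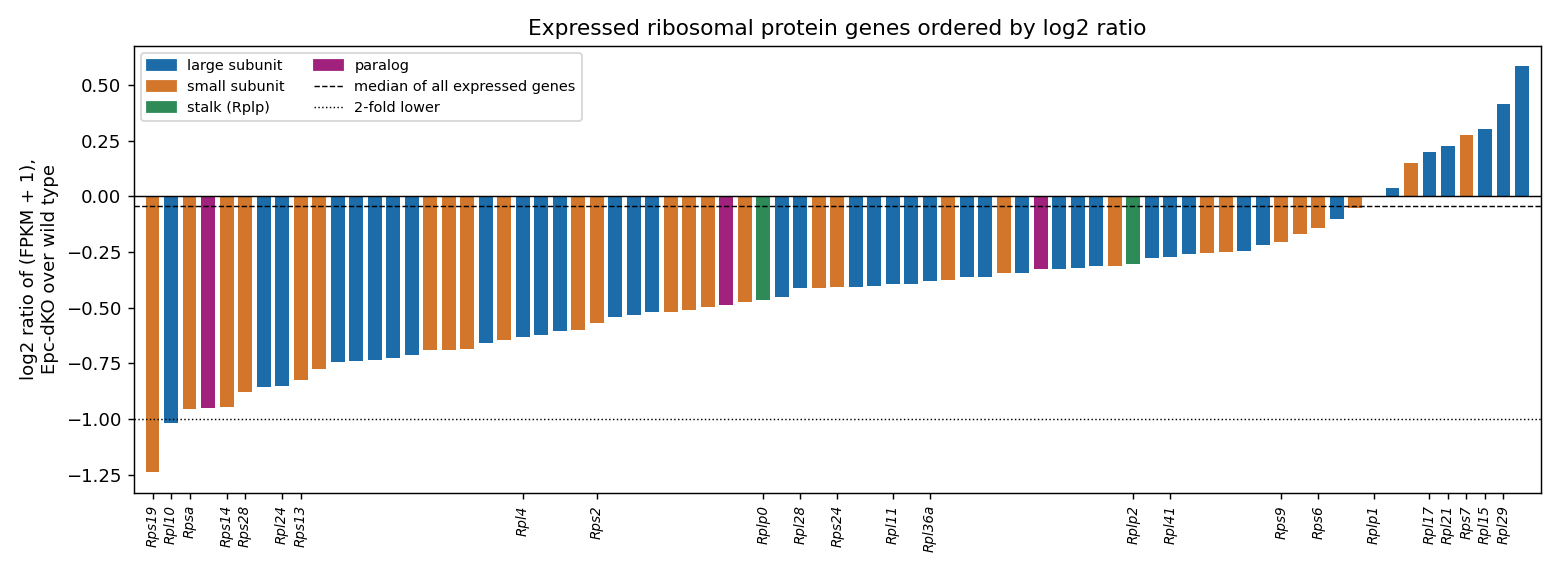
Log2 ratio of FPKM + 1 (Epc-dKO over wild type) of the 75 expressed ribosomal protein genes, in order, coloured by subunit, with some of the genes labelled; 1 library per genotype, so there are no error bars. Bars of both subunits run down to -1.24 for Rps19, 9 genes lie at or above 0, and the dashed line marks the median of all expressed genes at -0.05.

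Many ribosomal protein genes have processed pseudogenes that resemble their mRNA. The median share of 50-base words found in another annotated gene was 48.5% over the 81 members, and Rpl39l and Rpl3l shared none. The 6 expressed members under 10% shared all had a log2 ratio below 0, with a median of -0.50, and the 37 at 50% or more had a median of -0.40, with 31 below 0. The share depends on the transcript entry looked up. Among the 6 was Rps20, with a share of 7.44% over a long entry of 3706 nt but words in 31 other genes. Rpl8, with 7.86% shared, had a log2 ratio of -0.73. The level of Rpl34 cannot be assigned with confidence. Rpl34 had 0.549 FPKM in the library labelled Epc-dKO and 0.214 FPKM in the wild-type library, whereas Rpl34-ps1, which shares a stretch of 185 bases with it, had 6.57 and 13.4 FPKM (log2 ratio -0.93).

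Related genes were set beside the family from lists of textbook members. Of 37 expressed ribosome assembly factors 27 had a log2 ratio below 0, none rose and 1 fell, with a median of -0.14. The one that fell was Eftud1, which helps release the factor Eif6 from the large subunit, with 6.25 FPKM in the library labelled Epc-dKO and 18.6 FPKM in the wild-type library (-1.43). Eif6 itself had 4.96 and 8.99 FPKM (-0.75), and Nmd3, the export adaptor released in yeast as Rpl10 joins, had 9.39 and 7.90 FPKM (0.22). Of 14 genes of RNA polymerase I and its factors 9 lay below 0, with a median of -0.22 and none past 2-fold. Fau, whose product is a fusion of a ubiquitin-like protein with a ribosomal protein, had a log2 ratio of -0.04, and Gnb2l1, for the small subunit scaffold Rack1, had -0.89. Rsl24d1, a relative of Rpl24 that acts in assembly, rose, with 10.9 and 4.42 FPKM (1.13).

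The mRNAs of ribosomal proteins begin with a terminal oligopyrimidine (TOP) tract, a run of C and T in the gene that lets growth signals control their translation. Among 20 other genes known for such mRNAs, mostly translation factors, 13 had a log2 ratio below 0, none passed 2-fold and the median was -0.07. Eef1a1, for the factor that brings tRNA to the ribosome, had 371 FPKM in the library labelled Epc-dKO and 330 FPKM in the wild-type library, and Eef2, for the translocase, had 689 and 785 FPKM. The ribosomal protein genes thus had a lower median than this list, and the difference between the lists was not tested. An uninterrupted run of 8 or more C and T on the transcribed strand, reaching within 5 bases of the annotated start, was found in 20 of 61 members with a RefSeq promoter entry (32.8%) and in 9.63% of 27025 genes. On the opposite strand, read as a run of A and G, the shares were 3.28% and 10.6%.

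The starts with the longest runs are shown beside those of the paralog pairs and Rps19, from 30 bases before the annotated start to the fifteenth base from it (RefSeq, GRCm38.p6), with the run of C and T that reaches within 5 bases of the start in capitals (the longest, where there are several).
Rpl7a (chr2:26910777-26910821, plus strand): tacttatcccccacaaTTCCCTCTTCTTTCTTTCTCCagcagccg
Rpl27a (chr7:109519165-109519209, plus strand): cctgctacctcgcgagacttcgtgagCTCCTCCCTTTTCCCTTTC
Rpl35 (chr2:39005117-39005161, minus strand): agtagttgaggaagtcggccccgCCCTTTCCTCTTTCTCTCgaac
Rpl15 (chr14:18270972-18271016, minus strand): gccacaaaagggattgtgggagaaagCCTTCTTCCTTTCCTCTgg
Rpl39l (chr16:10170198-10170242, plus strand): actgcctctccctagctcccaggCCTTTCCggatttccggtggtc
Rpl39 (chrX:37085208-37085252, minus strand): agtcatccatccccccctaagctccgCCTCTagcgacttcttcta
Rpl10l (chr12:66284387-66284431, minus strand): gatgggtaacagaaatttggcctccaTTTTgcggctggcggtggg
Rpl10 (chrX:74270786-74270830, plus strand): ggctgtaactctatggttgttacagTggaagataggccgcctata
Rps19 (chr7:24884562-24884606, plus strand): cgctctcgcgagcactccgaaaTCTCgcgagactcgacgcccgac
The runs were 21 bases in Rpl7a, 20 in Rpl27a (the last base lies past the stretch shown), 18 in Rpl35 and 17 in Rpl15, 7 in Rpl39l, 5 in Rpl39, 4 in Rpl10l and Rps19 and 1 in Rpl10. Annotated starts can lie away from the true start, and the letters say nothing of control. The 19 expressed members with a run of 8 or more had a median log2 ratio of -0.41 (-0.95 to 0.30), and the 36 without had -0.47 (-1.24 to 0.58), close to each other beside the spread within each. Rpl35 (-0.54) and Rpl15 (0.30), both with long runs, lay on opposite sides of 0.

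Spermatogonial markers were lower together with the family, and lists for other testis cells were mixed. Of 12 spermatogonial markers 9 were expressed, all 9 had a log2 ratio below 0 with a median of -0.75, and their summed FPKM was 17.9 in the library labelled Epc-dKO and 39.3 in the wild-type library. Dmrt1, a transcription factor gene of spermatogonia, fell, with 2.47 FPKM in the library labelled Epc-dKO and 7.49 FPKM in the wild-type library, and so did Crabp1, with 1.27 and 3.77 FPKM. None of the 12 was listed at 0. The part of spermatogonial RNA in the lower ribosomal protein values was not tested. Of the 8 spermatocyte markers 5 lay below 0, with a median of -0.12 and 1 that fell (Tex101, 5.69 and 12.4 FPKM). Of the 7 Sertoli markers 6 were measured, and of these Clu alone was expressed (5.03 and 8.29 FPKM). The 6 Leydig markers summed to 25.1 and 38.8 FPKM with a median log2 ratio of -0.08, and Insl3 and Ptgds fell. Of the 4 peritubular markers 3 lay below 0, but Actg2 rose, and their sums were 42.3 and 25.8 FPKM. Among 6 blood and endothelial markers Vwf alone was expressed (2.31 and 2.60 FPKM), and Hbb-b1 and Hba-a1 were listed at 0 in both libraries. The 15 round spermatid markers had a median log2 ratio of 0.17, with 4 below 0 (Spaca3 at -0.64, Spaca1 at -0.42, Ldhc at -0.25 and Tssk2 at -0.03), and 4 rose, the transition protein and protamine genes Tnp1, Tnp2, Prm1 and Prm2, with log2 ratios of 1.84, 1.89, 2.82 and 3.01.

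**Figure D4:**
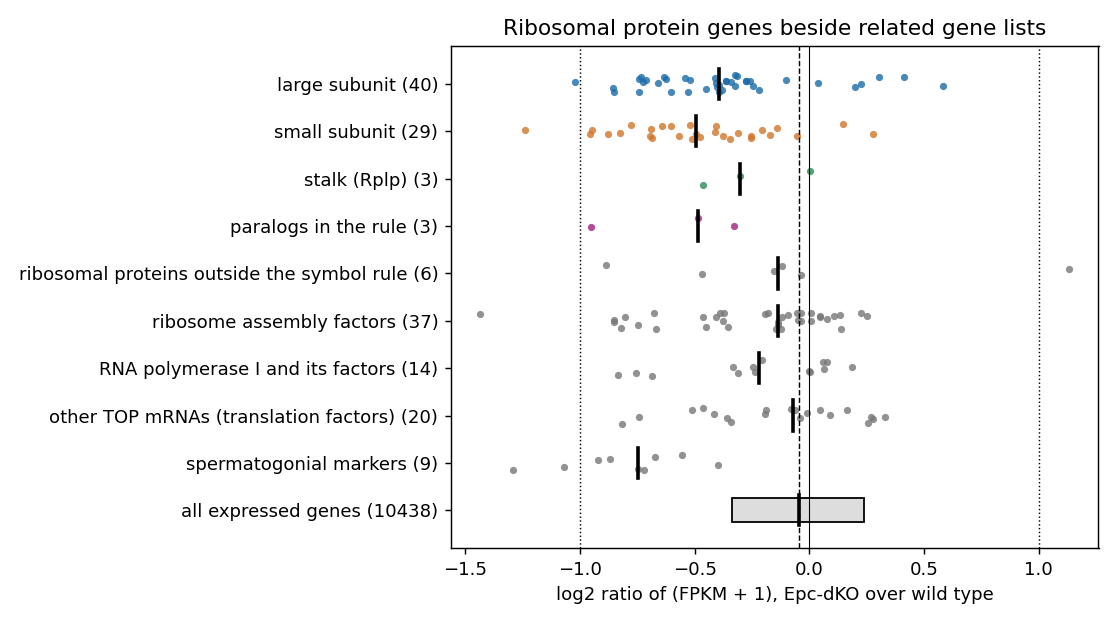
Log2 ratio of FPKM + 1 (Epc-dKO over wild type) of expressed genes, 1 point per gene, for the ribosomal protein genes by subunit and for related lists, with the number of genes in brackets; thick bars are medians and the box is the interquartile range of all expressed genes. The medians of the large (-0.40) and small (-0.50) subunits lie between those of spermatogonial markers (-0.75) and of ribosome assembly factors (-0.14).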

How the data were processed

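RNA-seq was analysed from 2 libraries of mouse round spermatids, 1 labelled Epc-dKO and 1 wild type. The deposited values are FPKM per gene, made by the authors with Cufflinks 2.2.1 and the mm9 genome per the submitters' processing notes. For the aligner, the annotation, the strand setting in counting and the handling of shared reads, the answer is not given in the sources used here. The last of 23235 rows held library codes and was left out. With 1 library per group no test or p-value applies. Log2 ratios used a pseudocount of 1 FPKM, a minimum mean FPKM of 1 and a 2-fold rule, tested on simulated data.

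Fragments were estimated from the steps of low values: 314 of 1993 genes below 0.1 FPKM in both libraries had log2 ratios within 0.003 of -0.143, the log2 ratio of what 1 fragment is worth (Epc-dKO over wild type). Absolute depth came from 29 genes with 1 GENCODE M21 transcript, with a length offset of 204 nt. It put 26.5% of 2093 single-transcript genes within 0.05 of a whole number in both libraries, where 1% is expected without steps. Of the 81 members, 8 lay within 0.05 of a whole number in both libraries. For genes with other transcripts the estimates depend on the transcript length looked up, so most members' fragment numbers and intervals are approximate. Intervals are exact (Clopper-Pearson, 95%) on the rounded estimates and cover counting error only.

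Transcript lengths, shared words and coding sequences came from GENCODE M21 and chromosomes and starts from RefSeq, both GRCm38 and not mm9. The rule for named genes takes paralogs and their parents, X-linked members, members past 2-fold, the 5 most abundant of each subunit and the 5 highest and 5 lowest ratios at a mean FPKM of 5 or more. Other members and genes of related lists were named for their role after their values were seen. Members, lists and rules were chosen with earlier results of these data known. Single values of some genes are not reported here. Alternatives covered pseudocounts, minimum FPKM, rescalings, a 4-fold rule and subsets of members. Biopython 1.88, SciPy 1.17.1, pandas 2.3.3, Matplotlib 3.10.9 and NumPy 2.4.6 were run under Python 3.11.15.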

Additional observations from a re-analysis of the deposited data

How the results depend on the processing

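No paired analysis was possible because there is 1 library of either genotype. The median log2 ratio of the expressed ribosomal protein genes was -0.28 with libraries rescaled to a median ratio of 1, which moved the median of all genes to 0.07; against the median of all genes it stayed between -0.35 and -0.43 under every setting tried. The share of members below 0 stayed between 85.3% and 90.2%. No member counted as expressed was at least 2-fold higher under any setting. Among all genes so counted the share was 1.27% to 4.15%, and 0.728% with the 4-fold rule. Members under the minimum of a setting were left out. The number of members at least 2-fold lower was 5 with a pseudocount of 0.1, 4 with 0.5 and 7 on the TPM scale. On these settings 6.25%, 3.49% and 6.96% of all expressed genes were as low. The number was 1 with a median ratio of 1 and 1 with the same upper quartile, beside 1.247% and 1.65% of all expressed genes. Without X-linked members it was 1, beside 1.88%. With a minimum mean FPKM of 5 it was 0, beside 1.97% of all genes so counted. With the 4-fold rule it was 0, beside 0.565%. The difference Rpl10l minus Rpl10 became 1.02 with a pseudocount of 0.1, 0.85 with 0.5 and 0.97 on the TPM scale, and Rpl39l minus Rpl39 became -1.37, -0.98 and -1.24; a smaller pseudocount weighs less on low genes, and on the larger TPM values 1 is a smaller addition. Rpl10 itself lay inside 2-fold at a median ratio of 1 (-0.93) and at the same upper quartile (-0.996). Rpsa passed 2-fold at both smaller pseudocounts and on the TPM scale, as did Rps27l (-1.89, -1.30 and -1.72), and Rps14 on the TPM scale. Members with an estimated 100 or more fragments, chosen after seeing the data, had a median of -0.41 over 61 genes. Depth limits Rpl39, Rpl34, Rpl36a, Rps4x, Rps27, Rps27l, Rps21 and Rpl3l, which rest on few fragments. It also limits Rps19, with an estimated 18.7 fragments in the library labelled Epc-dKO.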
